A study of Mus musculus with 6 samples.

Results

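The 9 genes followed here are ones in which mutations cause or predispose to amyotrophic lateral sclerosis (ALS). Their levels were read across the cell types recovered from mouse spinal cord tissue. The genes were chosen by name, as the 9 symbols Tardbp, Hnrnpa1, Hnrnpa2b1, Matr3, Sqstm1, Optn, Tbk1, Vcp and Pfn1. All 9 were among the 17042 genes listed in all 6 tables of the series. Single cells were profiled by Drop-seq, in which droplets give each cell a barcode and each captured RNA molecule a unique molecular identifier (UMI). Cord tissue had been dissociated with Accutase, cleared of myelin and run on a density gradient to collect live cells. The groups were wild-type mice given vehicle (WT-Veh), mice with the SOD1-G93A transgene given vehicle (SOD1-Veh), and SOD1-G93A mice given Necrostatin-1s, an inhibitor of RIPK1 kinase (SOD1-Nec), with 2 libraries each. The transgene is a mutant human SOD1. No age, dose or duration was stated, and no label says that libraries of a group came from separate animals, so p-values measure only the spread between these libraries, which may be technical.

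The 9 genes belong to a few cellular processes. TDP-43 (Tardbp), hnRNP A1, hnRNP A2/B1 and matrin 3 are nuclear RNA-binding proteins that act in splicing, transport and stability of RNA, and TDP-43 forms cytoplasmic inclusions in most patients. Sqstm1 (p62) and Optn (optineurin) encode receptors that tie ubiquitin-marked cargo to the autophagosome membrane, and the kinase TBK1 phosphorylates both. Vcp encodes an ATPase that extracts ubiquitinated proteins from complexes and membranes. Pfn1 encodes profilin 1, which binds actin monomers and feeds them to growing filaments. SOD1 disease is known for lacking the TDP-43 inclusions of most other ALS.

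Of 21919 barcodes, 3360 had at least 200 detected genes and at most 20% mitochondrial UMIs, and 3331 remained after doublet calling. Retained cells numbered 395 to 791 per library, with medians of 524 to 727 UMIs per cell. Any 2 libraries shared 4 to 9 barcodes. The Sod1 row reached 2.48 and 1.79 UMIs per 10000 in WT-Veh and 38.2 to 55.5 in the 4 libraries labelled as transgenic. Whether and how reads of the human transgene were counted in this mouse row is not stated. Clusters were formed without the 9 genes and named from marker lists, giving 15 classes. Most cells were myeloid, lymphoid or erythroid: 636 microglia, 522 B cells, 478 erythroid cells, 411 neutrophils and 291 monocytes. These 5 classes, with 20 or more cells per library throughout, were the ones tested between groups. Apart from microglia they are blood-lineage classes, some with clusters of precursor type. Whether those blood-lineage cells were resident in the cord was not tested. Of 252 cells named neurons, from 4 detected markers, 162 came from WT-Veh library 2. The neuron class held 4 UMIs of Chat, 8 of Slc5a7 and 1 of Mnx1, genes of motor neurons looked up after the values were seen, so motor neurons cannot be described here. The 63 skeletal muscle cells came from the SOD1-Veh libraries alone.

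A level below is the number of UMIs of a gene per 10000 UMIs of a class. It compares classes or libraries for 1 gene, not genes with each other. Less RNA of a gene per cell and more of other RNA cannot be told apart on this scale. This bears on erythroid cells above all, because haemoglobin made up 47.7% of their UMIs and 1.90 to 4.55% of those of the other 4 large classes, so their levels are also given per 10000 UMIs other than haemoglobin. Intervals and upper limits cover counting error only. Counts of the members in retained cells were 2479 UMIs for Hnrnpa2b1, 2134 for Pfn1, 552 for Vcp, 488 for Matr3, 460 for Sqstm1, 322 for Tardbp and 202 for Hnrnpa1, but 81 for Tbk1 and 77 for Optn. Over all barcodes with under 100 genes, whose UMIs were 54.0% haemoglobin, levels of the 9 genes were 0.0303 to 1.18, each below the level of that gene in retained cells.

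**Figure D1:**
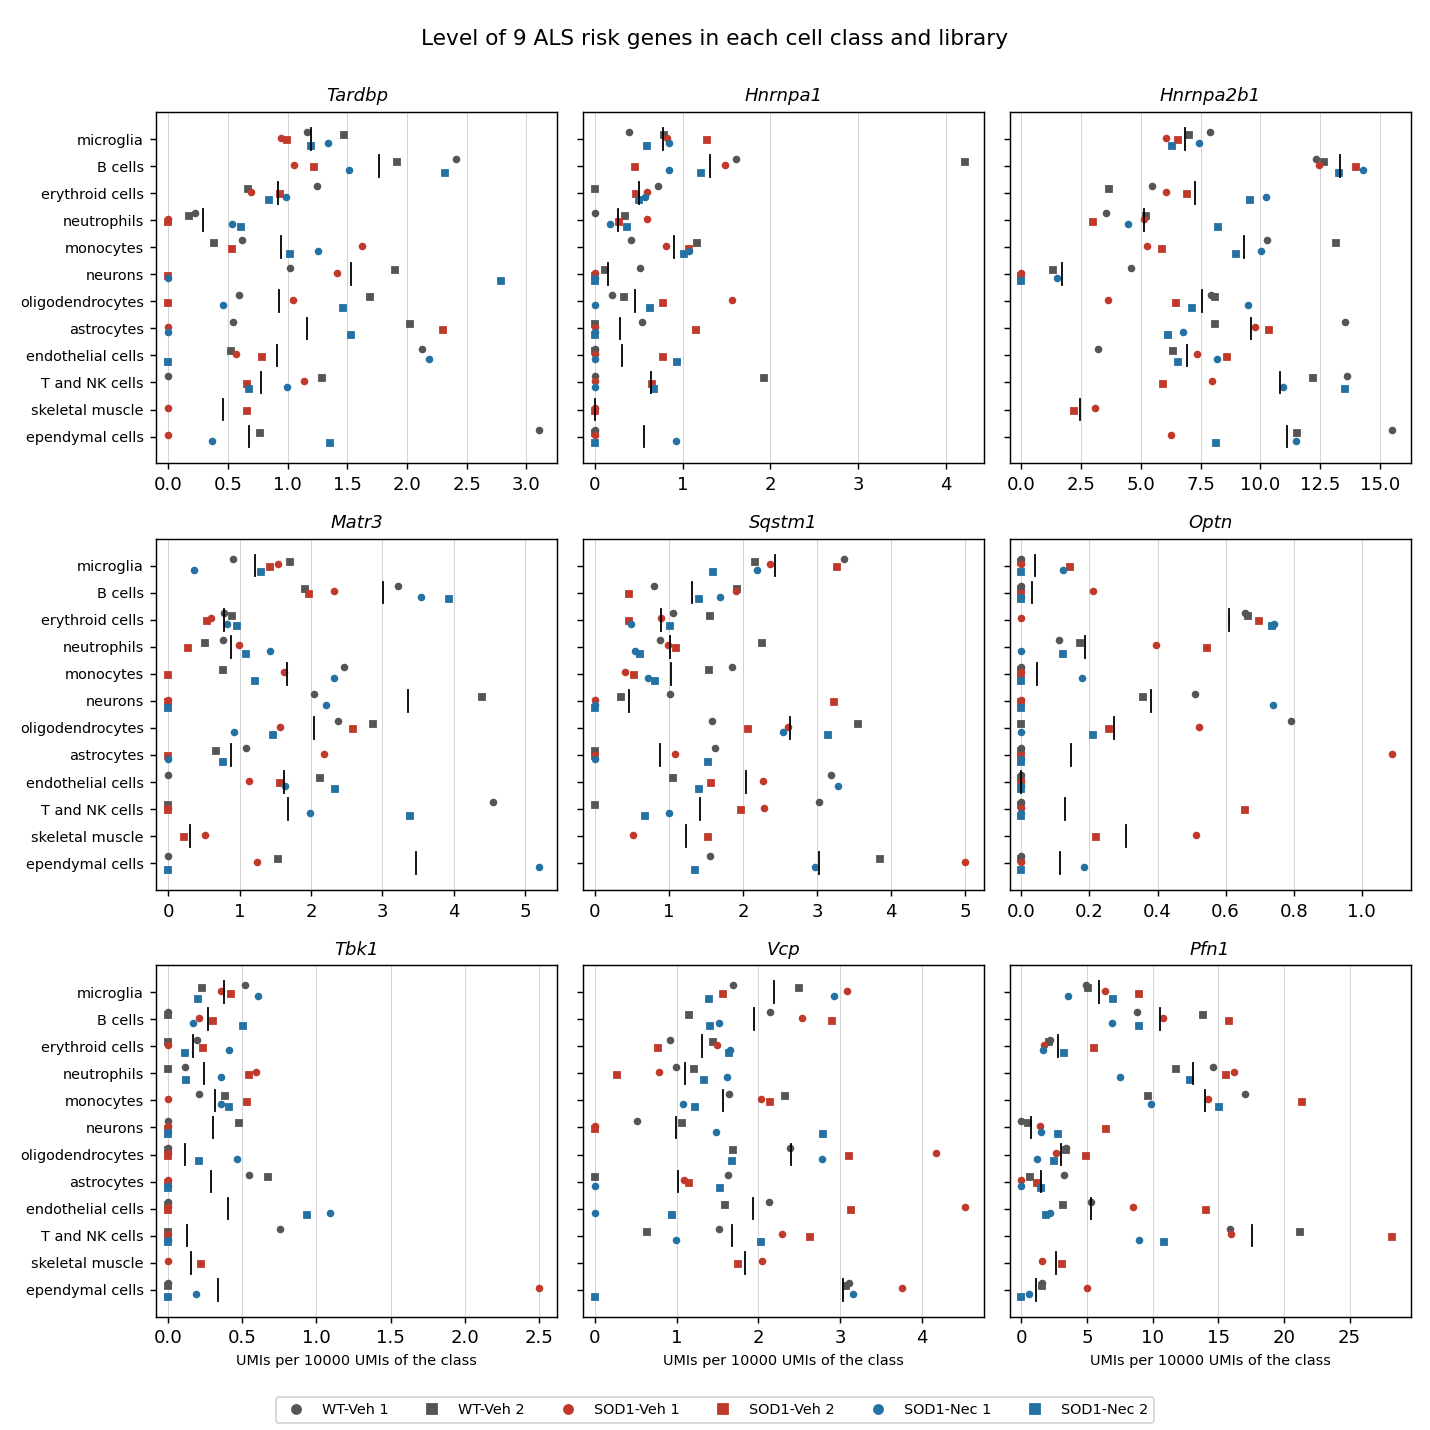
Level of each gene (UMIs per 10000 UMIs of the class, linear axis) in the 12 classes with at least 50 cells. Points are libraries with at least 5 cells of the class, colours are groups, and black ticks are levels over the summed libraries, such as 0.611 for Optn in erythroid cells and 17.5 for Pfn1 in T and NK cells.

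Among the RNA-binding members, Hnrnpa2b1 was highest in B cells among the 5 large classes, at 13.3. The WT-Veh libraries had B cell levels of 12.3 and 12.7, those of SOD1-Veh 12.5 and 14.0, and those of SOD1-Nec 14.3 and 13.3. Monocytes came next at 9.33, below B cells in 5 of 6 libraries. Erythroid cells (7.26), microglia (6.85) and neutrophils (5.14) followed with overlapping ranges. Without haemoglobin the place of erythroid cells was another: at 13.9 they were level with B cells (14.0), and above microglia (6.98) and neutrophils (5.26) in 6 of 6 libraries with no overlap. Oligodendrocyte precursors, with 47 cells, reached 16.1, and neurons, at 1.68 from 22 UMIs, were the lowest of the 15 classes. Those of WT-Veh library 2 were at 1.31 and the neurons of the other 5 libraries at 2.35.

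Within B cells and erythroid cells the level of Hnrnpa2b1 differed between clusters. B cells split into a cluster led by Vpreb3, Ly6d and Pax5, genes of B cell precursors, and one led by Cd74 and MHC class II genes of mature B cells. The precursor-type cluster held 17.7, with library values from 17.1 to 18.7, and the other cluster 6.36, from 3.39 to 8.998, so the ranges did not overlap. In erythroid cells the cluster led by Hemgn, a gene of erythroid precursors, held 9.27, and the cluster led by the haemoglobin genes 2.17. The order held in 6 of 6 libraries in both classes. Haemoglobin made up 43.3% and 58.9% of the UMIs of the 2 erythroid clusters, and per 10000 other UMIs the levels were 16.4 and 5.27. The clusters of microglia, at 6.54 and 7.04, had no such order, with 3 libraries each way.

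Tardbp also led in B cells, at 1.76, above microglia (1.19) in 6 of 6 libraries. Monocytes (0.942) and erythroid cells (0.923) did not differ beyond their spread. Without haemoglobin erythroid cells were at 1.76, close to B cells (1.85) and above microglia (1.22) in 6 of 6 libraries. Neutrophils were the lowest of the large classes at 0.294, from 0.221 and 0.174 in the WT-Veh libraries to 0.537 and 0.606 in those of SOD1-Nec, with no UMI in either SOD1-Veh library. The erythroid and neutrophil ranges did not overlap on either scale. All 11 neutrophil UMIs of Tardbp lay in the cluster led by the granule genes Camp, Ngp and Ltf, and the 121 cells of the Retnlg- and Cxcr2-led cluster had none. That 0 among 74937 UMIs allows a level of up to 0.400, while the Camp-led cluster was at 0.368, so no difference was detectable at this depth. In erythroid cells the Hemgn-led cluster stood at 1.16 and the haemoglobin-led one at 0.323, in this order in 6 of 6 libraries.

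Hnrnpa1, a close relative of Hnrnpa2b1, was likewise highest in B cells among the large classes (1.31). Its B cell libraries spread from 0.457 to 4.22, overlapping monocytes (0.897) and microglia (0.776). Erythroid cells were at 0.507, or 0.969 without haemoglobin. Myeloid progenitors, 38 cells with Mpo and Elane, reached 2.09 from 16 UMIs. Skeletal muscle had 0 UMIs, which allows a level of up to 0.460. Many processed copies of Hnrnpa1 exist in the genome and how reads matching several copies were counted is not stated, so its counts are uncertain.

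Matr3 was highest in ependymal cells (3.48 from 31 UMIs), neurons (3.36 from 44 UMIs) and oligodendrocyte precursors (3.31 from 16 UMIs). Of the neuron UMIs, 37 came from WT-Veh library 2, where the level was 4.4. The neurons of the other 5 libraries together gave 1.49 from 7 UMIs. B cells followed at 3.02, above monocytes (1.66) in 6 of 6 libraries, and erythroid cells (0.780) were lowest of the large classes, but not without haemoglobin, where they stood at 1.49, above microglia (1.24) and neutrophils (0.903) with overlapping ranges. Of the ependymal UMIs, 28 came from SOD1-Nec library 1 (5.19), and the other libraries gave 0.852 from 3 UMIs. The neuron and ependymal values thus each rest on 1 library.

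Of the autophagy and ubiquitin members, Sqstm1 was highest in microglia among the large classes. The WT-Veh libraries had microglial levels of 3.37 and 2.16, those of SOD1-Veh 2.37 and 3.27, and those of SOD1-Nec 2.19 and 1.60. Microglia exceeded B cells (1.31) in 6 of 6 libraries, although the 2 ranges overlapped. Erythroid cells were at 0.897, or 1.72 without haemoglobin, next below microglia (2.47) on that scale and under them in 4 of 6 libraries. Oligodendrocytes were at a like level (2.63, 1.59 to 3.54), as were ependymal cells (3.03 from 27 UMIs). A UMI was seen in 14.2% of microglia (95% Clopper-Pearson interval 11.5 to 17.1%) and in 23.8% of oligodendrocytes (18.2 to 30.2%). Thinned to 500 UMIs per cell, the shares were 10.5% and 12.9%. Myeloid progenitors had a single Sqstm1 UMI among 76735.

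Microglia formed 2 clusters that differed in Sqstm1. One was led by the homeostatic genes C1qb, Siglech and P2ry12, and the other by Ccl3, Ccl4, Egr1 and Jun, chemokines and early response genes. The Ccl3-led cluster held 3.03 and the C1qb-led cluster 1.51. The order held in all 6 libraries, by a wide margin in SOD1-Veh (3.04 against 0.455 and 4.57 against 0.452) and by almost nothing in WT-Veh library 2 (2.16 against 2.15). The low SOD1-Veh values rest on 1 UMI each. Cells of the Ccl3-led cluster were deeper, with a median of 939 UMIs against 446, and the part of depth in this difference was not tested. Pfn1 too was higher in the Ccl3-led cluster in 6 of 6 libraries (6.65 against 4.88), whereas Vcp stood at 2.21 and 2.16. Hnrnpa1 was higher there in 5 of 6 libraries (1.05 against 0.352, from 32 and 7 UMIs). In the same order Tbk1 stood at 0.461 and 0.252, Matr3 at 1.32 and 1.06, and Tardbp at 1.15 and 1.26.

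Optn stood apart from the other members because most of its few UMIs lay in erythroid cells. Erythroid cells carried 47 of 77 Optn UMIs, 61.0% (49.2 to 71.95%), against 24.5% of all UMIs. The WT-Veh libraries had erythroid levels of 0.657 and 0.667, those of SOD1-Veh 0 and 0.700, and those of SOD1-Nec 0.742 and 0.735. SOD1-Veh library 1 had no Optn UMI among 100544 erythroid UMIs, which allows up to 0.298, and the other 5 libraries lay close together. Microglia had 2 UMIs, B cells 1 and monocytes 1, levels of 0.0398, 0.0299 and 0.0449. Neutrophils were between, at 0.187. Among the smaller classes, neurons were at 0.382 (5 UMIs) and oligodendrocytes at 0.271 (7 UMIs). Skeletal muscle was at 0.307 and fibroblasts at 1.05, from 2 UMIs each. Astrocytes, T and NK cells and ependymal cells had 1 UMI each. Endothelial cells, oligodendrocyte precursors and myeloid progenitors had 0. These counts are too few to rank the smaller classes against erythroid cells.

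Most erythroid Optn UMIs lay in the Hemgn-led cluster. It held 44 of the 47 erythroid UMIs, at 0.796, and the haemoglobin-led cluster held 3, at 0.138. In that cluster the WT-Veh libraries were at 0.872 and 0.776, those of SOD1-Veh at 0 and 0.833, and those of SOD1-Nec at 1.03 and 0.987. An Optn UMI was found in 7.74% of erythroid cells (5.51 to 10.5%) and 0.314% of microglia (0.0381 to 1.13%), at median depths of 1187 and 587 UMIs. Thinned to 500 UMIs, the share was 3.16% of 380 erythroid cells, and 0 of 382 microglia, which allows up to 0.785%. Per 10000 UMIs other than haemoglobin the erythroid level was 1.17 and the microglial level 0.0406, so the gap was also present on that scale.

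Tbk1, whose product phosphorylates both receptors, was too sparse to rank classes. Its levels in the 5 large classes ran from 0.169 in erythroid cells to 0.378 in microglia, and all neighbouring ranges overlapped. Without haemoglobin erythroid cells were at 0.323 and neutrophils lowest, at 0.246. All 13 erythroid Tbk1 UMIs lay in the Hemgn-led cluster. A UMI was seen in 2.83% of microglia (1.69 to 4.44%).

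Vcp varied less between the large classes than the other well-counted members. Its levels were 2.19 in microglia, 1.94 in B cells, 1.57 in monocytes, 1.31 in erythroid cells and 1.10 in neutrophils, and each neighbouring pair had overlapping ranges. Without haemoglobin erythroid cells moved to the top at 2.51, above microglia (2.23) in 5 of 6 libraries and B cells (2.03) in 4 of 6, again with overlapping ranges. Among smaller classes it was 5.37 in oligodendrocyte precursors (26 UMIs), 3.03 in ependymal cells and 2.40 in oligodendrocytes. Oligodendrocytes (1.68 to 4.17 over libraries) overlapped microglia (1.40 to 3.08) for Vcp, as they did for Sqstm1. Astrocytes (1.02 for Vcp, 0.874 for Sqstm1) and neurons (0.993 and 0.458) were low for both.

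Sqstm1 and Vcp had the most similar class profiles among the 7 members with at least 200 UMIs. Over the 12 classes with at least 50 cells, Pearson's r of their log2(CPM + 10) values was 0.917, and 0.891 to 0.933 with each class left out in turn. The classes share libraries and depth, so no p is given. The stretch of 250 bases before the start of each gene is shown for this pair, because their levels varied together across classes. The sequences are from RefSeq on build GRCm38.p6, minus strand, at chr11:50210821-50211070 for Sqstm1 and chr4:43000508-43000757 for Vcp, whereas the counts come from build mm9 and were not placed on them. Capitals mark matches, on either strand, to 4 letter strings: TGACNNNGC, the core of the antioxidant response element, CACGTG, the E-box, CCAAT, and GGGCGG, the GC box.
Sqstm1: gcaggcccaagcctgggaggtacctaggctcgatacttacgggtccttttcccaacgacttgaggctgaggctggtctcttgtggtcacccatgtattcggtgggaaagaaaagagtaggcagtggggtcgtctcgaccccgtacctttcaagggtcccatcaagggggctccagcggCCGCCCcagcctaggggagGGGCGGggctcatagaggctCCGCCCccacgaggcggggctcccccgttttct
Vcp: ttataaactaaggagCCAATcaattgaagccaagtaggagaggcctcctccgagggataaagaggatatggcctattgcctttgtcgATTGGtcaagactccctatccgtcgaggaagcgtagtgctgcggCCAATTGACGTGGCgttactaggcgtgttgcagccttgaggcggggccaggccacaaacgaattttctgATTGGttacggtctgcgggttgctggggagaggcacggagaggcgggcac

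The Sqstm1 window held 3 GC boxes and no other match. The Vcp window held 4 CCAAT strings and 1 TGACNNNGC, of which the CCAAT string at 119 and the TGACNNNGC string at 114 bases before the start adjoin, and no GC box. No string was present in both. GGGCGG occurs in 32.7% of the 32851 promoters in the table, CCAAT in 33.8%, TGACNNNGC in 10.2% and CACGTG in 6.02%. These matches are letters in a window and not measured binding. Promoters of 8 of the 9 members were in the table, all but Matr3.

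Pfn1, the actin-binding member, was 17.5 in T and NK cells and 17.1 in myeloid progenitors. Monocytes (14.0), neutrophils (13.03) and B cells (10.6) followed with overlapping ranges. Microglia (5.95) were below B cells in 6 of 6 libraries, and erythroid cells (2.82) below microglia in 6 of 6. Without haemoglobin erythroid cells were at 5.39 and microglia at 6.07, in this order in 5 of 6 libraries; the exception was SOD1-Veh library 2, with 11.2 in erythroid cells. Astrocytes (1.46), ependymal cells (1.12) and neurons (0.764) were lowest, each from 10 UMIs. Neurons of WT-Veh library 2 were at 0.476 and those of the other 5 libraries at 1.28, and ependymal cells without SOD1-Nec library 1 were at 1.99, so their order is not set. A Pfn1 UMI was seen in 56.7% of monocytes (50.8 to 62.5%), 52.8% of neutrophils (47.8 to 57.7%) and 29.9% of microglia (26.3 to 33.6%), and in 3.97% of neurons (1.92 to 7.18%) at a median of 437 UMIs. Within B cells it ran opposite to Hnrnpa2b1: 8.93 in the Vpreb3-led cluster and 13.2 in the Cd74-led one, in this order in 6 of 6 libraries.

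**Figure D2:**
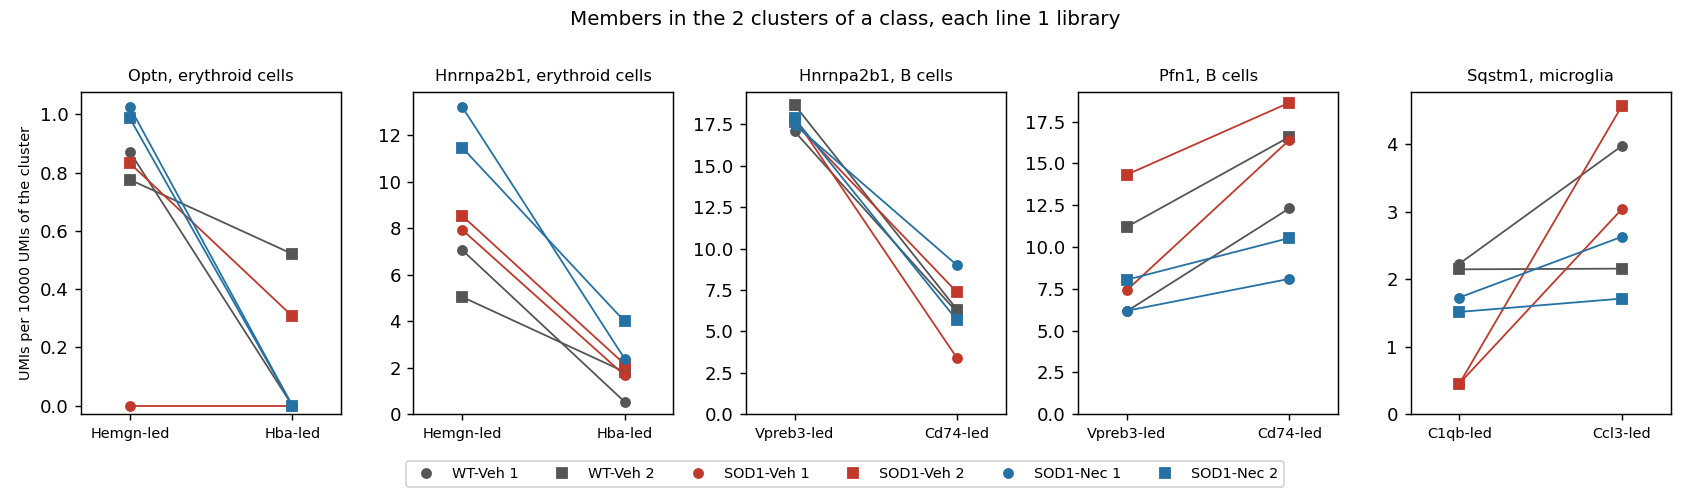
Levels of members (UMIs per 10000 UMIs of the cluster, linear axes) in the 2 clusters of a class, named by leading genes, with 1 line per library. Hnrnpa2b1 is higher in the Hemgn-led and Vpreb3-led clusters and Sqstm1 in the Ccl3-led cluster in 6 of 6 libraries, and the Optn line at 0 is SOD1-Veh library 1.

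For each member with at least 200 UMIs, the 3 genes of like class profile were named by the same correlation over 12 classes and 2288 genes. Pfn1 was most like Gmfg (r = 0.967), an actin-regulating gene of blood cells, Arhgap30 (0.966) and Timm10b (0.946). Hnrnpa2b1 was most like Trmt112 (0.952), Hnrnpul2 (0.926) and Hnrnpc (0.920), the last 2 being of its own family. Hnrnpa1 was most like Hnrnpk (0.917), Hmg20b (0.911) and Ptma (0.910). Sqstm1 was most like Dctn3 (0.953), a dynactin subunit, then Vcp and Sep15 (0.910), and Vcp was most like Sqstm1, Calm2 (0.874) and Dctn3 (0.870). Matr3 was most like Bptf (0.931), Sf3b2 (0.924) and Ik (0.913), and Tardbp like the splicing factor gene Srsf6 (0.856), Sars (0.785) and Psmd4 (0.778).

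The first comparison asks whether the SOD1-G93A transgene goes with another level of these genes under vehicle. No member was called by edgeR (adjusted p under 0.05) in SOD1-Veh against WT-Veh over all cells. Matr3 was 1.44 and 1.89 in WT-Veh and 1.28 and 0.969 in SOD1-Veh, with non-overlapping libraries and a log2 fold change of -0.51 ± 0.29 (SE). With neurons left out, most of whose Matr3 UMIs came from WT-Veh library 2, it was -0.28 ± 0.26. Tardbp was 1.04 and 1.23 against 0.768 and 0.818 (-0.46 ± 0.31). Vcp was 1.42 and 1.61 against 2.23 and 1.85 (0.48 ± 0.28). In these 3 genes WT-Veh and SOD1-Veh values were separate, but edgeR's adjusted p was 0.58 or more for all 9 members. The 95% intervals of the 9 members together ran from -1.14 to 1.45 on the log2 scale. In such sums over all cells, fewer cells of a type and less RNA per cell cannot be told apart.

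Of all 7482 genes tested over all cells, 0.829% were called, and none of the 9 members was. Of those 62 called genes 50 were higher in SOD1-Veh, the only group with skeletal muscle cells, whose part in that share is not reported here. At unadjusted p under 0.05 the share was 10.4% of all genes and again no member. DESeq2 called none of the 9, with none at unadjusted p under 0.05. The groups did not overlap in 5 members, while this held for 38.6% of all genes.

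Within the 5 classes, 22 pairs of member and class could be tested: Hnrnpa2b1 and Pfn1 in all 5 classes, and Matr3, Sqstm1, Tardbp and Vcp in microglia, B cells and erythroid cells. No pair was called, against 0.889% of the 5624 pairs of gene and class. Of the member pairs, 2 had an unadjusted p under 0.05, a rule met by 8.71% of all pairs. DESeq2 called none of 39 pairs, with 1 at unadjusted p under 0.05. Libraries of the groups did not overlap in 10 of 22 member pairs, and in 36.9% of all pairs.

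The WT-Veh libraries had monocyte levels of Hnrnpa2b1 of 10.3 and 13.2, those of SOD1-Veh 5.27 and 5.88, and those of SOD1-Nec 10.01 and 8.97. Both SOD1-Veh libraries lay under the other 4, on 13 and 11 UMIs from 26 cells each. The log2 fold change of SOD1-Veh against WT-Veh was -1.05 ± 0.35 (adjusted p = 0.24 by edgeR), and it was -0.47 with the coarser clustering (Leiden resolution 0.5). The coarser clustering formed no myeloid progenitor class, and its monocyte cluster of 330 cells had Elane among its leading genes. The part of such cells in the smaller value was not tested. Pfn1 in microglia was 4.92 and 5.11 in WT-Veh and 6.39 and 8.96 in SOD1-Veh, 0.62 ± 0.28 (adjusted p = 0.38). Haemoglobin, RNA of another cell type, made up 0.992% and 1.62% of microglial UMIs for the WT-Veh libraries, 0.276% and 0.521% for SOD1-Veh, and 4.52% and 3.02% for SOD1-Nec. With haemoglobin genes left out the Pfn1 value was 0.57.

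Whether the change of a member differed between classes was tested by an interaction of class and group, for the 7 members with enough counts. None was called, against 0.501% of 2796 genes. Hnrnpa2b1, fitted lower in monocytes, microglia and neutrophils but higher in erythroid and B cells, alone had an unadjusted p under 0.05, at 0.0179 (adjusted 0.94), a rule met by 4.18% of genes.

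**Figure D3:**
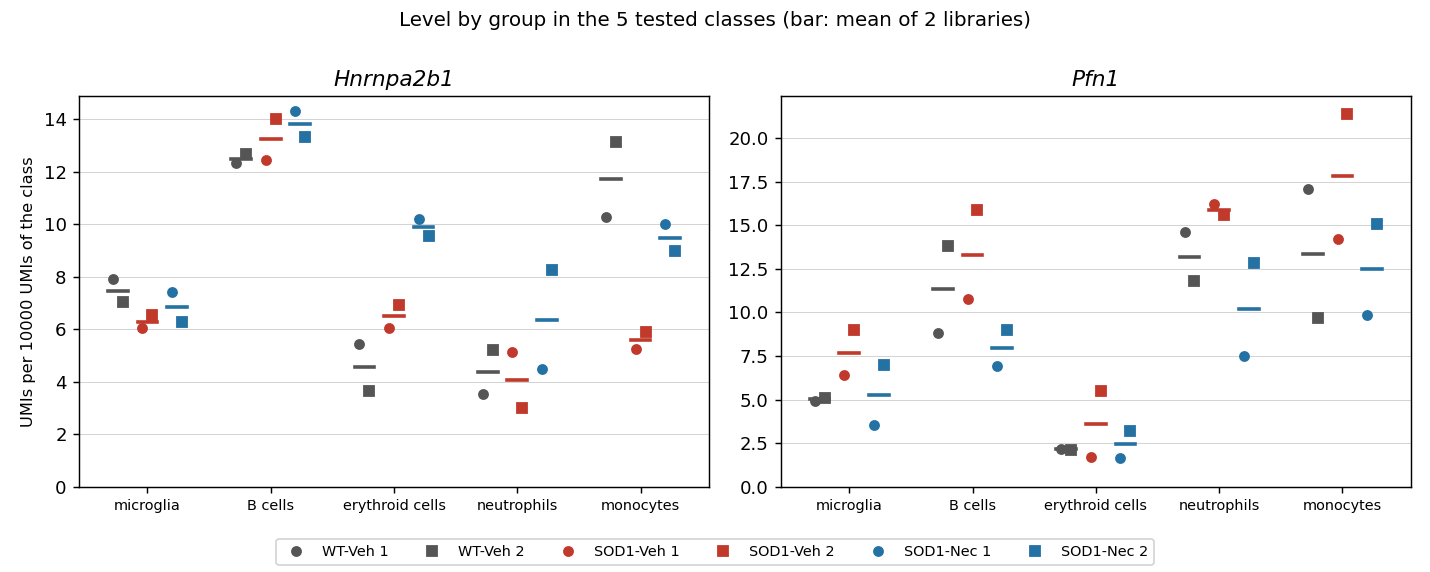
Level of Hnrnpa2b1 and Pfn1 (UMIs per 10000 UMIs of the class, axes from 0) in the 5 tested classes, by group. Points are libraries and bars are means of 2 libraries. Hnrnpa2b1 in monocytes is lowest in both SOD1-Veh libraries, and each SOD1-Nec library has less Pfn1 than its same-numbered SOD1-Veh library in each class. Equal numbers are not said to pair libraries, and the share of all genes with such an order was not computed.

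The second comparison, SOD1-Nec against SOD1-Veh, addresses Necrostatin-1s in transgenic mice. It shares the SOD1-Veh libraries with the first, so opposite signs in the 2 are not independent. No member was called over all cells, against 0.548% of all genes. Of those 41 called genes 40 were lower in SOD1-Nec, which lacks the skeletal muscle cells of SOD1-Veh. Matr3 alone had an unadjusted p under 0.05, a rule met by 7.06% of genes. Its levels were 1.28 and 0.969 for SOD1-Veh against 1.88 and 1.74 for SOD1-Nec, 0.64 ± 0.29 (adjusted p = 0.70 by edgeR). In SOD1-Nec library 1, 28 of the 100 Matr3 UMIs came from 17 ependymal cells, and their part was not tested. Within classes Matr3 was fitted at -0.72 ± 0.57 in microglia, 0.21 ± 0.61 in erythroid cells and 0.88 ± 0.37 in B cells. DESeq2 called none of the 9, with none at unadjusted p under 0.05. Group values were separate in 3 of 9 members and in 40.2% of genes. The 95% intervals together ran from -1.39 to 1.27.

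In classes, none of the 22 pairs was called, against 1.76% of all pairs. Of the 22, 4 had an unadjusted p under 0.05, against 13.2% of all pairs: Pfn1 in B cells and in erythroid cells, Matr3 in B cells and Hnrnpa2b1 in monocytes. DESeq2 called none of 33 pairs, with 1 at unadjusted p under 0.05. Libraries did not overlap in 12 of 22 pairs, and in 45.8% of all pairs. None of the 7 members differed between classes, against 0.501% of genes, and none had an unadjusted interaction p under 0.05, against 6.33%.

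The fitted Pfn1 value was below 0 for SOD1-Nec against SOD1-Veh in all 5 classes, and none passed the test. B cells were 10.8 and 15.8 for SOD1-Veh against 6.90 and 8.98 for SOD1-Nec, -0.67 ± 0.29 (adjusted p = 0.40). Neutrophils were 16.2 and 15.6 against 7.52 and 12.9, -0.52 ± 0.34. Monocytes were 14.2 and 21.4 against 9.84 and 15.1, -0.41 ± 0.31. In these 3 classes the SOD1-Nec library was under the SOD1-Veh library of the same number in each set of tables, and so it was in microglia and erythroid cells, 10 of 10 class and number pairs. Those pairs come from 4 libraries and are not independent, and the labels do not say that equal numbers pair libraries. How often genes in general show such an order was not computed, so 10 of 10 cannot be called unusual. Regardless of number, the Pfn1 ranges of these groups overlapped in microglia, monocytes and erythroid cells, but not in B cells or neutrophils.

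Microglial Pfn1 was 6.39 and 8.96 under vehicle and 3.53 and 6.99 under Necrostatin-1s in SOD1-G93A libraries, -0.46 ± 0.27 (adjusted p = 0.49), and -0.07 without SOD1-Nec library 1. The Ccl3-led cluster, where Pfn1 and Sqstm1 are higher, held 46 of 83 and 43 of 78 cells under vehicle, against 39 of 124 and 37 of 157 under Necrostatin-1s. Its part in the microglial values was not tested. Sqstm1 in microglia was -0.53 ± 0.39 in the same comparison (adjusted p = 0.59). Within the Ccl3-led cluster Sqstm1 was 3.04 and 4.57 for SOD1-Veh against 2.63 and 1.71 for SOD1-Nec. The C1qb-led cluster had the opposite order, with 0.455 and 0.452 for SOD1-Veh, from 1 UMI each, against 1.73 and 1.52 for SOD1-Nec, and the clusters were not tested.

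In erythroid cells, Pfn1 was 1.69 and 5.52 for SOD1-Veh against 1.65 and 3.22 for SOD1-Nec, -0.98 ± 0.41 (adjusted p = 0.23). SOD1-Veh library 2, with 71 UMIs, decided this value: without it the log2 fold change was 0.04, and without SOD1-Veh library 1 it was -1.43 and passed the test (adjusted p = 0.0080). Matr3 in B cells was 2.33 and 1.98 for SOD1-Veh against 3.54 and 3.93 for SOD1-Nec, 0.88 ± 0.37 (adjusted p = 0.40). The WT-Veh libraries, at 3.21 and 1.92, spanned much of that gap. Hnrnpa2b1 in monocytes was 0.86 ± 0.34 (adjusted p = 0.32), or 0.23 with the coarser clustering, and its highest SOD1-Veh library lay under its lowest SOD1-Nec library.

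**Figure D4:**
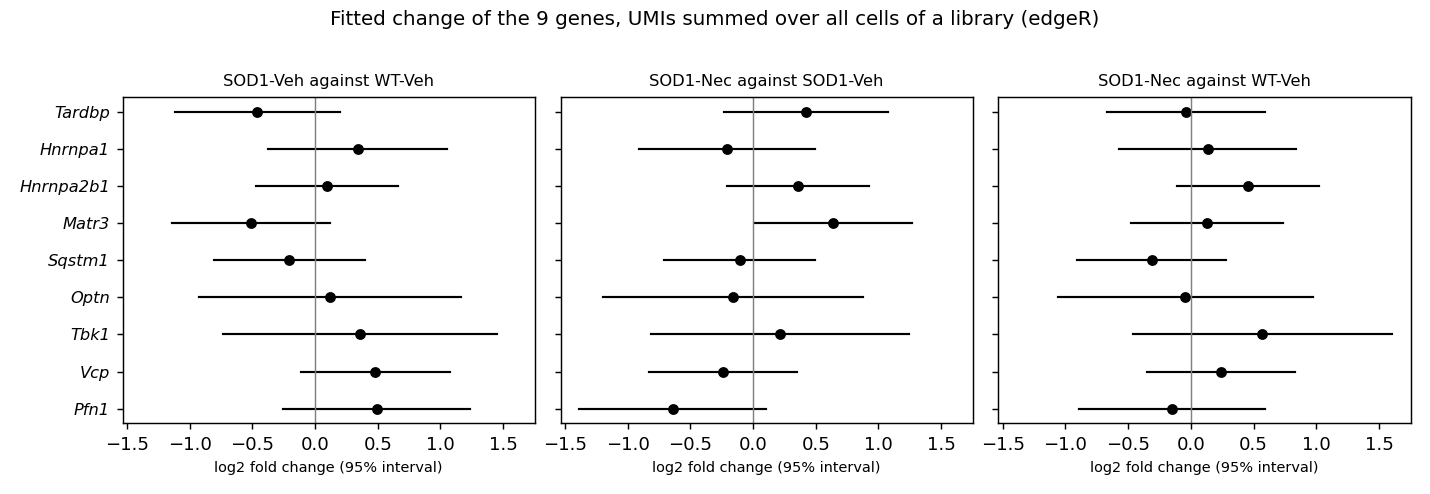
Fitted log2 fold change (point) and 95% interval (line) of each gene in the 3 comparisons, from UMIs summed over all cells of a library, by edgeR. All intervals include 0 except that of Matr3 in SOD1-Nec against SOD1-Veh, whose adjusted p is 0.70.

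The third comparison set treated SOD1-G93A mice against wild-type mice, which differ in both genotype and treatment. No member was called over all cells, against 0.0401% of genes, and none had an unadjusted p under 0.05, against 8.46%. DESeq2 gave an adjusted p for 6 of the 9 and called none, with none of the 9 at unadjusted p under 0.05. Hnrnpa2b1 was 7.44 and 6.30 in WT-Veh and 9.60 and 9.27 in SOD1-Nec, 0.46 ± 0.26 (adjusted p = 0.64 by edgeR). The WT-Veh sums held 34 and 162 neurons and 54 and 37 B cells, those of SOD1-Nec 27 and 9 neurons and 112 and 166 B cells. With neurons left out the value was 0.35 ± 0.22. Within classes it was 0.61 in neutrophils, 0.57 in erythroid cells, 0.30 in B cells, -0.07 in microglia and -0.19 in monocytes. Libraries did not overlap in 3 of 9 members and in 39.4% of genes. The 95% intervals together ran from -1.06 to 1.60.

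In classes, no pair of 22 was called, against 2.63% of all pairs, and 2 had an unadjusted p under 0.05, against 14.2%. DESeq2 called none of 35 pairs, with none at unadjusted p under 0.05. Libraries did not overlap in 6 of 22 pairs and in 49.7% of all pairs. The interaction called none of 7 members, against 0.823% of genes, and none had an unadjusted p under 0.05, against 7.51%.

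Both pairs were in erythroid cells. The WT-Veh libraries had Hnrnpa2b1 at 5.45 and 3.67, those of SOD1-Veh at 6.07 and 6.92, and those of SOD1-Nec at 10.2 and 9.56, so both SOD1-Nec libraries were above the other 4. The fitted log2 fold change against WT-Veh was 0.57 ± 0.25 (adjusted p = 0.29). Haemoglobin made up 52.1% and 58.2% of erythroid UMIs for WT-Veh, 55.1% and 50.9% for SOD1-Veh, and 36.8% and 39.6% for SOD1-Nec, so it differed along with the level, and its part was not tested. Per 10000 UMIs other than haemoglobin, the WT-Veh libraries had 11.4 and 8.77, those of SOD1-Veh 13.5 and 14.1, and those of SOD1-Nec 16.2 and 15.8, in the same order. The fitted value was 0.65 with haemoglobin genes left out and 0.63 in the Hemgn-led cluster alone. With library totals in place of TMM factors it was 1.15 and passed the test (adjusted p = 0.025), a scaling that moved the median of all erythroid genes by 0.58. Sqstm1 in erythroid cells was 1.05 and 1.56 in WT-Veh and 0.495 and 1.02 in SOD1-Nec, -1.22 ± 0.56 (adjusted p = 0.30).

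The 7 lists of related genes were tested in the same fits and held no called gene over all cells in any comparison. Of 30 hnRNP and other nuclear RNA-binding genes, all 30 were tested. In SOD1-Nec against WT-Veh, 23 were fitted higher and 7 lower, with a median of 0.17 beside -0.01 for all genes. In microglia 7 were fitted higher and 12 lower (median -0.10), in erythroid cells 10 and 9, in B cells 15 and 10, and in monocytes and neutrophils 8 and 5. Of 30 genes of actin turnover, such as cofilin and the Arp2/3 subunits, 25 were fitted lower and 5 higher in SOD1-Nec against SOD1-Veh. The median was -0.16, beside -0.01 for all genes. Pfn1, not in that list, was -0.64 ± 0.35 in the same fit, and 2 of the 30 had an unadjusted p under 0.05. The SOD1-Veh sums also held 63 skeletal muscle cells, a class absent from SOD1-Nec, whose part in the list median was not tested. Within B cells 6 actin genes were fitted higher and 10 lower, and in erythroid cells 3 and 4. The counts were 7 and 12 in microglia, 5 and 12 in monocytes and 3 and 17 in neutrophils. Of 29 other ALS genes, 21 were tested, and in SOD1-Veh against WT-Veh 15 were fitted lower, with a median of -0.36 beside 0.01 for all genes. The sums held 34 and 162 neurons in WT-Veh but 13 and 7 in SOD1-Veh. With neurons left out, chosen after seeing the data, 12 of 18 were fitted lower and the median was -0.15, and within B cells, microglia and erythroid cells the medians were 0.03, -0.05 and -0.15 over 4, 3 and 5 genes. The lists of selective autophagy (21 of 24 tested), TBK1 adaptors (13 of 18), VCP cofactors (21 of 24) and SQSTM1 regulators and NRF2 targets (10 of 14) had medians between -0.14 and 0.14 in the 3 comparisons.

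In classes, list genes were called in SOD1-Nec against WT-Veh, and none in the other 2 comparisons. In erythroid cells, Gabarapl2, an ATG8 family protein to which p62 and optineurin can bind, fell, with a log2 fold change of -1.79 ± 0.42 (adjusted p = 0.014 by edgeR). Gclm, a subunit of the glutathione synthesis enzyme and NRF2 target, fell in the same cells, at -1.31 ± 0.27 (adjusted p = 0.0054). In microglia, the splicing factor gene Srsf7 fell, at -1.29 ± 0.38 (adjusted p = 0.028). The haemoglobin shares of erythroid and microglial UMIs given above differed between the groups. So did the Ccl3-led share of microglia, with 48 of 99 and 51 of 95 cells in WT-Veh against 39 of 124 and 37 of 157 in SOD1-Nec. The part of these shares in these changes was not tested. These were 1 of 22 pairs tested for selective autophagy, 1 of 14 for SQSTM1 regulators and NRF2 targets and 1 of 89 for nuclear RNA-binding genes, against 2.63% of all pairs. Of all 1319 genes tested in erythroid cells in this comparison, 41 were called, 39 of them lower and 2 higher. In microglia 103 of 1555 were called, 40 lower and 63 higher. A called fall in erythroid cells was thus not particular to these lists. No called gene was found in the 15 pairs of other ALS genes, the 2 of TBK1 adaptors or the 79 of actin turnover.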

How the data were processed

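UMI counts per gene symbol and barcode were deposited by the authors without normalization, 1 table per library, from whole-cord Drop-seq per the labels. Build mm9 is given in the submitters' processing notes; the aligner, annotation and counting rules are not stated there. The members and lists were chosen with earlier results of these data known. The tables numbered 1 list 18169 genes and those numbered 2 list 18650, and the 17042 shared genes were used. Each library held 1508618 to 1767205 UMIs.

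Doublets (29) were called per library with Scrublet in scanpy 1.11.5 and removed. Cells were clustered without the 9 members (2000 variable genes, 30 components, 15 neighbours, Leiden resolution 1 in leidenalg 0.10.2). Clusters were named from at least 3 detected markers; all 19 were named. UMIs were summed per library, once for all cells together and once per class where no library had under 20 of its cells. Sums were tested with edgeR 4.0.16 (quasi-likelihood F test, TMM factors, filterByExpr, Benjamini-Hochberg over all genes of a fit), all 6 libraries in 1 fit. The interaction fit held the library as a block. An exact permutation test of 2 against 2 cannot go below p = 0.333. For shares, cells were thinned to 500 UMIs. A class against another was described, not tested, as the clusters come from the same cells. An upper limit for 0 counts is 3 counts. The tests were checked on simulated counts, with changes set only in genes better counted than Optn and Tbk1. The simulated spread was fixed and equal for all genes, so this does not show which changes of members could have been called. Power for sparsely counted members was not checked. Alternatives were DESeq2 1.42.0, other scaling, filters, doublets, clustering, a replicate block, each library left out, and, chosen after seeing the data, haemoglobin genes left out of fits and of levels, neurons or 1 library left out of sums and levels, and the larger cluster of erythroid and of B cells. Named genes are the 9 members, up to 4 called genes of each list by smallest p, and the 3 genes most like each member. A called list gene that this rule names is not reported here.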

Additional observations from a re-analysis of the deposited data

How the results depend on the processing

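The count of members called was 0 in each of the 3 comparisons over all cells, in classes and for differences between classes, and 139 of 141 recomputed counts were also 0. The exceptions were 1 pair in classes for SOD1-Nec against SOD1-Veh without SOD1-Veh library 1 (range 0 to 1 when each library was left out), and 1 pair in classes for SOD1-Nec against WT-Veh with library totals in place of TMM factors. The first is Pfn1 in erythroid cells, whose log2 fold change of -0.98 became -1.43 there and ran from -1.60 without SOD1-Nec library 2 to 0.044, a reversed sign, without SOD1-Veh library 2. The second is Hnrnpa2b1 in erythroid cells. Over 12 log2 folds of members, 203 of 206 recomputed values kept their sign and their side of the threshold. That scaling moved the median of all erythroid genes by 0.51 in SOD1-Nec against SOD1-Veh and by 0.58 against WT-Veh, and by -0.19 to 0.10 in the other fits. The replicate numbers are not said to pair libraries. Same-numbered libraries deviated together with correlations of -0.18, 0.17 and -0.26 over all cells, and a replicate block gave 0 called members in all comparisons. With at least 400 genes per cell, only all cells and microglia kept 20 cells per library, so other classes gave no value. The block was not run for the interaction, which already holds each library as a block. Levels over summed libraries and means over 6 libraries differed by less than 1 SD in 45 of 45 cases. Shares of cells with a UMI, unthinned or thinned to 300 UMIs, left the interval of the share at 500 UMIs in 44 of 90 cases. Counts of Optn, Tbk1 and Hnrnpa1 were too low for the edgeR filter in every class; DESeq2, without that filter, gave them an adjusted p in 3 or 4 classes per comparison and called none. Per 10000 UMIs other than haemoglobin erythroid cells moved up in the order of the 5 large classes for each member except Optn, where they stayed highest, and Pfn1, where they stayed lowest.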
